A study of Mus musculus with 12 samples.

Results

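The comparison set livers of tumour-free Mtdh knockout mice (KO_no_tumor, 3 libraries) against livers of tumour-free wild-type mice (WT_no_tumor, 3 libraries). Genes entered it when their value was at least 10 in at least 3 of these 6 libraries, which left 15934 of the 22557 genes in the deposited table. Just inside that limit lay 866 genes with exactly 3 libraries at or above 10 and just outside it 1077 genes with 2 such libraries. Of the genes kept, 34 passed through KO_no_tumor libraries alone and 54 through WT_no_tumor libraries alone. All mice were age-matched females, and each library came from a different mouse, per the labels. The same study also held KO_tumor and WT_tumor livers, 3 libraries each, from mice that carried a Py8119 mammary tumour, an allograft of a mouse mammary tumour cell line. These 6 libraries entered the fit as a shared source of the spread. The labels give the genotype as a knockout of Mtdh or as WT, while the deletion design, any Cre driver, the strain and the ages were not stated in them. Each library came from powdered whole liver, so it holds RNA of every cell type in the organ.

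Mtdh encodes metadherin, also called AEG-1 or LYRIC, a protein of the endoplasmic reticulum membrane and the nucleus with no known enzymatic activity. It binds the nuclease SND1, takes part in NF-kB signalling, and binds the retinoid X receptor RXRA, whose activity as a partner of other nuclear receptors it is known to restrain. In liver it has been studied for its role in tumour growth and fat metabolism, where PPARA, a partner of RXRA, switches on genes that burn fatty acids.

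Values are the authors' reads per gene scaled by a factor per library, called the normalized signal below. Depth was estimated at 25700000 to 37400000 reads in the KO_no_tumor libraries and 27600000 to 30500000 in the WT_no_tumor libraries, to 3 digits. KO_no_tumor replicate 3 stood apart: small nucleolar RNAs took 4.84% and small nuclear RNAs 5.32% of its signal, against at most 1.0% and 1.63% in the other 5 tumour-free libraries. The share of albumin, a plasma protein that defines hepatocytes, was 6.12% to 9.17% in KO_no_tumor and 7.16% to 7.55% in WT_no_tumor. The fit was made with limma on log2(value + 1), a scale that understates changes of low genes, and fold changes below are on that scale with their SE. With 3 libraries a group, an exact permutation test cannot go below p = 0.1.

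Mtdh itself checked the labels. It (ENSMUSG00000022255, chromosome 15, 34082840 to 34145771, mm39) had a normalized signal of 584, 436 and 627 in KO_no_tumor livers, against 4330, 5370 and 4970 in WT_no_tumor livers. The groups lay far apart, and the KO mean was 11.2% of the WT mean. Mtdh fell by 3.16 ± 0.35 (SE) on the log2 scale (limma adjusted p = 0.00634), and it was the gene that passed the threshold. The call ended without KO_no_tumor replicate 1 or 2 (limma adjusted p = 0.0506 and 0.0685) and without WT_no_tumor replicate 2 or 3 (limma adjusted p = 0.086 and 0.0617). It held without KO_no_tumor replicate 3 or WT_no_tumor replicate 1 (limma adjusted p = 0.0386 and 0.0476). With the 6 tumour-free libraries alone the limma adjusted p was 0.000307, and without KO_tumor replicate 1 it was 7.34e-06. Gene-level values do not say which exons the remaining reads came from.

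Beyond Mtdh, no gene reached an adjusted p below 0.05 by limma. The share called was 0.0% higher in KO and 0.00628% lower in KO, which is Mtdh, and the second smallest limma adjusted p was 0.555. By unadjusted p below 0.05, 260 genes passed (1.63%), 138 higher and 122 lower in KO. The median log2 fold change over all genes tested was −0.0051, and 49.4% of genes were positive. The central 95% of genes lay between −1.7 and 1.38. In simulated data the fit recovered 4 of 50 genes (8%) at a true log2 change of 1 and 19 of 50 (38%) at 2. The lack of a call is thus not a lack of change.

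**Figure D1:**
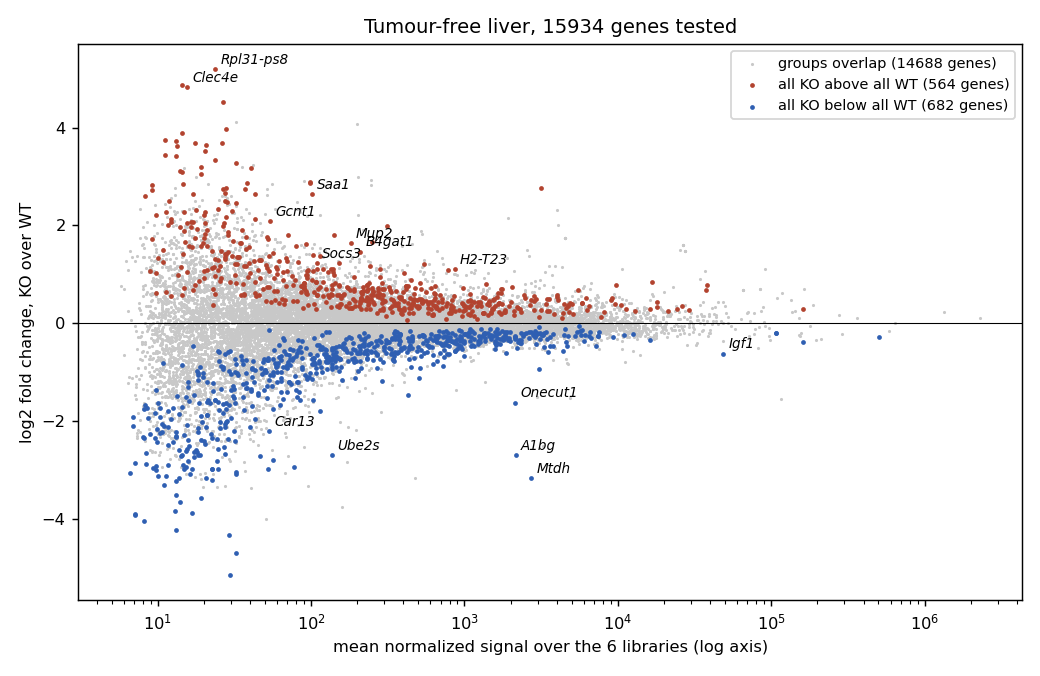
Log2 fold change (KO over WT) against the mean normalized signal over the 6 tumour-free libraries (log axis), 1 point per gene tested. Red marks the 564 genes whose 3 KO libraries all lay above the 3 WT libraries, blue the 682 whose KO libraries all lay below, and Mtdh is the blue point that passed the limma threshold.

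A looser description is the genes whose 3 KO and 3 WT values did not overlap. These were 564 higher in KO (3.54%) and 682 lower in KO (4.28%), 7.82% in either direction. None but Mtdh passed the limma test, so the genes below are described by their values and by how far the groups lay apart. Besides Mtdh, the 14 genes higher and the 14 lower in KO with the smallest limma p, at a mean of at least 50, each had a limma adjusted p of 1.0.

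Of the 14 genes higher in KO, H2-T23, Socs3, Serpinb9 and Gcnt1 are given first. H2-T23, which encodes the non-classical MHC class I molecule Qa-1, had 925, 1090 and 1520 in KO_no_tumor livers, against 610, 392 and 645 in WT_no_tumor livers. The difference was 1.10 ± 0.35 on the log2 scale. Socs3, a feedback inhibitor of cytokine signalling through STAT3, had 116, 134 and 210 in KO_no_tumor livers, against 75.6, 51.5 and 63.4 in WT_no_tumor livers (1.23 ± 0.39). Every KO value of both genes lay above every WT value, and KO_no_tumor replicate 3, the library that stood apart, was the highest for both. Serpinb9, an inhibitor of granzyme B, had 379, 438 and 744 in KO_no_tumor livers, against 333, 286 and 298 in WT_no_tumor livers (0.71 ± 0.26), again highest in that library. Without that library the differences were 0.90 ± 0.39 for H2-T23, 0.98 ± 0.42 for Socs3 and 0.42 ± 0.25 for Serpinb9. Gcnt1, which builds branched O-glycans, had 84.1, 85.7 and 78.9 in KO_no_tumor livers, against 29.4, 5.26 and 39.8 in WT_no_tumor livers (2.08 ± 0.66).

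Ndufb3, a subunit of respiratory complex I, had 318, 406 and 376 in KO_no_tumor livers, against 184, 147 and 247 in WT_no_tumor livers (0.95 ± 0.30). Rpl17, a protein of the large ribosomal subunit, had 214, 322 and 473 in KO_no_tumor livers, against 122, 110 and 208 in WT_no_tumor livers (1.18 ± 0.41). WT_no_tumor replicate 3 and KO_no_tumor replicate 1 were the nearest values of the groups. The carboxylesterase gene Ces1g had 4850, 7320 and 8270 in KO_no_tumor livers, against 4350, 3750 and 4410 in WT_no_tumor livers (0.68 ± 0.24). Differences of 0.73 ± 0.26 for Agxt2, a mitochondrial aminotransferase, 0.74 ± 0.27 for the cytochrome P450 Cyp3a59 and 0.62 ± 0.23 for the ribonuclease gene Ang were smaller than that of Rpl17. B4gat1 (1.46 ± 0.54), Zkscan17 (0.73 ± 0.26) and Sun2 (0.46 ± 0.17), which encodes a protein of the nuclear envelope, were also among the 14.

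The genes lower in KO were led by Onecut1, which encodes the liver transcription factor HNF6. Onecut1 had 1680, 853 and 689 in KO_no_tumor livers, against 3750, 3710 and 2080 in WT_no_tumor livers (−1.62 ± 0.45), and WT_no_tumor replicate 3 was the lowest of its group. Car13, a cytosolic carbonic anhydrase, had 18, 18.8 and 17.1 in KO_no_tumor livers, against 72.3, 76.7 and 115 in WT_no_tumor livers (−2.20 ± 0.89), so its KO libraries were close to one another and well below WT. Prkag2, a regulatory subunit of AMP-activated protein kinase, had 293, 393 and 258 in KO_no_tumor livers, against 703, 548 and 491 in WT_no_tumor livers (−0.89 ± 0.34). The lowest WT value of Prkag2 was above its highest KO value by less than the spread within WT. Aph1b, a subunit of gamma-secretase, had 134, 212 and 215 in KO_no_tumor livers, against 270, 380 and 405 in WT_no_tumor livers (−0.92 ± 0.32). Ube2s, a ubiquitin-conjugating enzyme of the anaphase-promoting complex, had 117, 96.8 and 1.55 in KO_no_tumor livers, against 226, 210 and 166 in WT_no_tumor livers (−2.70 ± 1.07), where KO_no_tumor replicate 3 lay far below the others. The remaining 9 ran from −1.68 ± 0.67 for the amino acid transporter gene Slc7a7 to −0.48 ± 0.18 for the splicing factor gene Srsf7.

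**Figure D2:**
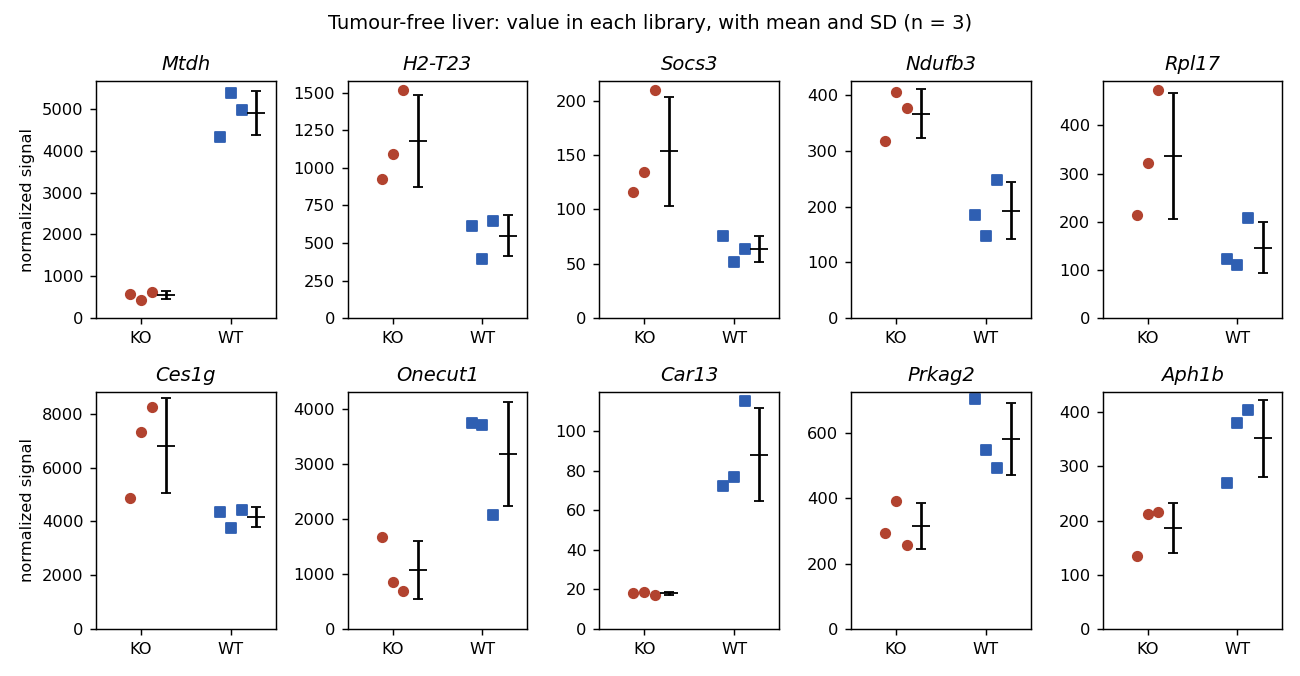
Normalized signal in each tumour-free library for Mtdh and 9 other named genes, KO (red circles) left of WT (blue squares), with the group mean and SD (n = 3 each) in black. In each panel every KO point lies on one side of every WT point, and only Mtdh passed the limma threshold across all genes.

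RXRA and its partners are the known link from metadherin to fat metabolism, and their genes are described next. Of 58 gene lists, 53 were made by hand and 5 by rule. Across the 53, 1144 of 1191 symbols were found and 1057 tested. In all 58 lists, 0 members passed the limma threshold. The median was positive in 42 lists and negative in 16. Counts of members apart are to be read against 3.54% higher and 4.28% lower over all genes. Of 12 genes for proteins that bind or act with metadherin, 7 were positive, the median log2 fold change was 0.04 (−0.08 without KO_no_tumor replicate 2), and 0 were apart in the higher direction and 2 in the lower one, Ywhaz (−0.16 ± 0.15) and Crebbp (−0.07 ± 0.17). Rxra had 6540, 4350 and 5680 in KO_no_tumor livers, against 7510, 4310 and 4480 in WT_no_tumor livers (0.05 ± 0.24), and Snd1 differed by 0.11 ± 0.25. Rxra thus overlapped between the groups. Of 14 receptors that pair with RXR, 9 were positive with a median of 0.19, or 0.10 without WT_no_tumor replicate 2 and 0.37 without KO_no_tumor replicate 2. Nr1i3, the xenobiotic receptor CAR, had 2480, 2830 and 3490 in KO_no_tumor livers, against 1740, 2120 and 2280 in WT_no_tumor livers (0.51 ± 0.26). The bile acid receptor gene Nr1h4 (0.41 ± 0.25) and Vdr (0.73 ± 0.82) also lay apart on the higher side, and Pparg (−0.57 ± 0.34) on the lower side. Ppara, the receptor gene itself, did not lie apart (−0.0017 ± 0.33).

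PPARA targets and other fat metabolism genes were read in the same libraries. Of 21 tested PPARA targets 0 were apart, where 7.82% of all genes tested were in either direction. A list of 21 can hold 0 at that share. Of these targets 13 were positive and the median was 0.09. That median was −0.13 without WT_no_tumor replicate 3 and 0.33 without WT_no_tumor replicate 2. Angptl4, a lipase inhibitor, differed by 0.55 ± 0.39, with overlapping groups. Of 25 genes of fatty acid oxidation and ketogenesis 17 were positive with a median of 0.05 (−0.02 and 0.21 without the same libraries), and the electron transfer gene Etfb was the 1 gene apart (0.73 ± 0.44). The 22 lipogenesis genes had 19 positive and a median of 0.30, but without WT_no_tumor replicate 2 the median was −0.25 and without WT_no_tumor replicate 1 it was 0.63. The 24 cholesterol synthesis genes had 9 positive and a median of −0.06, or −0.47 and 0.14 without those libraries. Fasn, fatty acid synthase, had 107000, 143000 and 79400 in KO_no_tumor livers, against 149000, 17900 and 156000 in WT_no_tumor livers. WT_no_tumor replicate 2 was thus the lowest of the 6, and its part in these medians was measured only by leaving it out.

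Genes of bile acid and drug metabolism had positive medians. Of 25 bile acid genes 20 were positive, 5 were apart in the higher direction and 0 in the lower, with a median of 0.24. Slc27a5, which activates bile acids, had 9840, 12000 and 10700 in KO_no_tumor livers, against 7640, 6600 and 8520 in WT_no_tumor livers (0.52 ± 0.21), and Baat, which joins them to amino acids, differed by 0.47 ± 0.21. Neither passed the test. Of 31 drug-metabolising cytochrome P450 genes 23 were positive and 4 were apart, all higher, with Cyp2c50 at 0.84 ± 0.36, Cyp2d9 at 1.22 ± 0.50 and a list median of 0.30. The 20 pericentral genes, expressed near the central vein, had 19 positive, 5 apart, all higher, and a median of 0.35. That median was 0.25 without WT_no_tumor replicate 2 and 0.45 without WT_no_tumor replicate 1. Periportal genes, of the opposite zone, had 12 of 17 positive and a median of 0.20, with 1 apart higher and 1 lower. The periportal median was 0.01 without WT_no_tumor replicate 3 and 0.33 without WT_no_tumor replicate 2. Among 30 genes of amino acid breakdown and the urea cycle 29 were positive, 4 apart and the median 0.24 (0.15 without KO_no_tumor replicate 1 and 0.40 without KO_no_tumor replicate 2), led by Nags, whose product makes the activator of the urea cycle, at 0.77 ± 0.36.

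Nuclear and mitochondrially encoded genes of the respiratory chain had medians of opposite sign. Of 38 nuclear-encoded subunits 31 were positive and 6 were apart, all higher, with a median of 0.22, among them Ndufv1 (0.59 ± 0.27) and Cox6b1 (1.03 ± 0.44). Of 15 mitochondrially encoded genes 1 was positive and 3 were apart, all lower, with a median of −0.25, or −0.38 without KO_no_tumor replicate 3 and −0.13 without KO_no_tumor replicate 2. mt-Atp6 had 145000, 111000 and 166000 in KO_no_tumor livers, against 173000, 208000 and 166000 in WT_no_tumor livers, and its KO_no_tumor replicate 3 and WT_no_tumor replicate 3 values were nearly equal. Mitochondrially encoded transcripts took 6.19 ± 0.789% of the signal in KO_no_tumor and 7.62 ± 0.104% in WT_no_tumor (SD, n = 3 each; exact permutation p = 0.1, the smallest possible). It was picked from several composition measures compared this way. The others had exact permutation p from 0.3 (share of long non-coding RNAs) to 0.8 (share of protein-coding genes, for example). Cytosolic ribosomal protein genes had 59 of 81 positive, 6 apart, all higher, and a median of 0.19, or 0.10 without WT_no_tumor replicate 2 and 0.29 without KO_no_tumor replicate 1. Proteasome genes had 27 of 31 positive, 4 apart, all higher, and a median of 0.17, or 0.08 without WT_no_tumor replicate 1.

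In the list of growth hormone and sex-biased genes, 10 of 32 were positive, the median was −0.14 (−0.29 without WT_no_tumor replicate 3 and −0.06 without WT_no_tumor replicate 2), 3 were apart on the lower side, A1bg, Socs2 and Igf1, and 1 on the higher side, Cyp2d9. The list was not split by direction of sex bias, so its median gives no direction for growth hormone action or sex bias. Its members with the smallest p were positive and overlapped between the groups. They were Cyp2b13 (1.06 ± 0.40) and Bcl6, a repressor of transcription (1.19 ± 0.45). Igf1, the growth factor made by hepatocytes under growth hormone, had 52600, 24400 and 41400 in KO_no_tumor livers, against 56200, 60100 and 56800 in WT_no_tumor livers (−0.62 ± 0.31). KO_no_tumor replicate 2 was the lowest. A1bg, a sex-biased plasma protein gene of mouse liver, had 321, 309 and 1420 in KO_no_tumor livers, against 4530, 4530 and 1850 in WT_no_tumor livers (−2.69 ± 1.13). In tumour-bearing livers its difference was positive, at 1.94. Socs2, a feedback inhibitor of growth hormone signalling, had 1940, 2210 and 1930 in KO_no_tumor livers, against 2500, 5840 and 3960 in WT_no_tumor livers (−0.94 ± 0.41). Among 17 p53 and growth arrest genes 4 were positive, with a median of −0.19, or −0.31 without KO_no_tumor replicate 3 and −0.11 without KO_no_tumor replicate 1. Ccng1, Gdf15 and Trp53inp1 lay apart on the lower side and Sesn2 (0.33 ± 0.39) on the higher side. Ccng1, which encodes cyclin G1, differed by −0.57 ± 0.23. The hepatocyte identity list holds transcription factors and secreted or surface proteins of hepatocytes. Of its 22 genes 15 were positive with a median of 0.09 (−0.01 without WT_no_tumor replicate 3 and 0.16 without KO_no_tumor replicate 3), and the transcription factor genes Onecut1 and Foxa1 (−0.27 ± 0.27) lay apart on the lower side.

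Other lists also held genes apart. Hsph1 (−0.61 ± 0.26) and Chordc1 (−0.46 ± 0.21), which encode a chaperone and a co-chaperone of the heat shock response, lay apart on the lower side, as 2 of 16 such genes, and Hspa1a on the higher side. Fth1, the heavy chain of the iron store ferritin, had 8400, 9340 and 19700 in KO_no_tumor livers, against 8340, 4710 and 7770 in WT_no_tumor livers (0.78 ± 0.36). KO_no_tumor replicate 3 was its highest library. Tsku, a hepatokine, differed by 0.57 ± 0.25 and the adipokine gene Rarres2 by 0.70 ± 0.32, both apart on the higher side. Of 24 hepatokine genes tested 4 were apart on the higher side, these among them, and 2 on the lower side, Igf1 and Gdf15. Major urinary protein genes had 18 of 19 tested members positive with a median of 0.53, or 0.15, 0.16 and 1.16 without KO_no_tumor replicate 1, WT_no_tumor replicate 2 and WT_no_tumor replicate 1, and their near-identical copies make single values uncertain.

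Inflammation lists had positive medians, and KO_no_tumor replicate 3 held the highest scores. NF-kB targets and chemokines had 18 of 28 positive, 0 apart and a median of 0.21. That median was −0.04 without KO_no_tumor replicate 3 and 0.47 without WT_no_tumor replicate 3. Their scores in those 2 libraries were close, at 0.47 and 0.45. Of 36 acute phase genes 32 were positive and 5 were apart, with a median of 0.27, or 0.14 without KO_no_tumor replicate 3 and 0.41 without KO_no_tumor replicate 1. In tumour-bearing livers the acute phase median was −0.65, with 5 of the 36 positive. Of 25 complement genes 22 were positive and 8 were apart with a median of 0.25 (0.13 without KO_no_tumor replicate 3). Among those apart were C4b (0.67 ± 0.32) and C2 (0.54 ± 0.26). Interferon-stimulated genes had 43 of 47 positive and a median of 0.58, but 1 apart, Tgtp1, which read 315, 366 and 17700 in KO_no_tumor livers and 150, 178 and 240 in WT_no_tumor livers. Without KO_no_tumor replicate 3 the interferon median was 0.02, and without KO_no_tumor replicate 1 it was 0.95. Antigen presentation genes had 28 of 30 positive with a median of 0.55, or 0.15 and 0.95 without the same libraries, and Nlrc5, a regulator of MHC class I genes, differed by 1.09 ± 0.46. Saa1, an acute phase protein, read 54.8, 56.4 and 439 in KO_no_tumor livers and 11.3, 12.6 and 34.1 in WT_no_tumor livers (2.64 ± 1.03).

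The promoters of Socs3 and Saa1 are shown because their groups lay apart among the acute phase genes and each is known to be induced by cytokines. Each sequence is the 250 bases before the annotated start, 5′ to 3′ on the gene's strand, from RefSeq on GRCm38.p6, and capitals mark the motif searched. A STAT-type motif TTCNNNGAA was found in the Socs3 window (chr11:117969367-117969616, minus strand) and a C/EBP-type motif TTGCNCAA, searched on both strands, in the Saa1 window (chr7:46742981-46743230, minus strand). Those motifs, which do not overlap each other, occurred in 7.02% and 2.61% of 32851 promoter windows of the same length, and a match is a description of letters only.
Socs3: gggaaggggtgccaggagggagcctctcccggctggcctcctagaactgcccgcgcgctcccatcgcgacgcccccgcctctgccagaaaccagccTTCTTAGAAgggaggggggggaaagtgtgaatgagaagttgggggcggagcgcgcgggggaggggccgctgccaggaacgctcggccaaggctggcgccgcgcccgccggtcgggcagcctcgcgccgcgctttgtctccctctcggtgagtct
Saa1: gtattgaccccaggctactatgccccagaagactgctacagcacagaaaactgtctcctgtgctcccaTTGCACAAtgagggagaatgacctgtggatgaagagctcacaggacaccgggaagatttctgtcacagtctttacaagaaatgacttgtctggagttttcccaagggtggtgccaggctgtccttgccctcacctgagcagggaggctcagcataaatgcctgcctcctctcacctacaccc

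**Figure D3:**
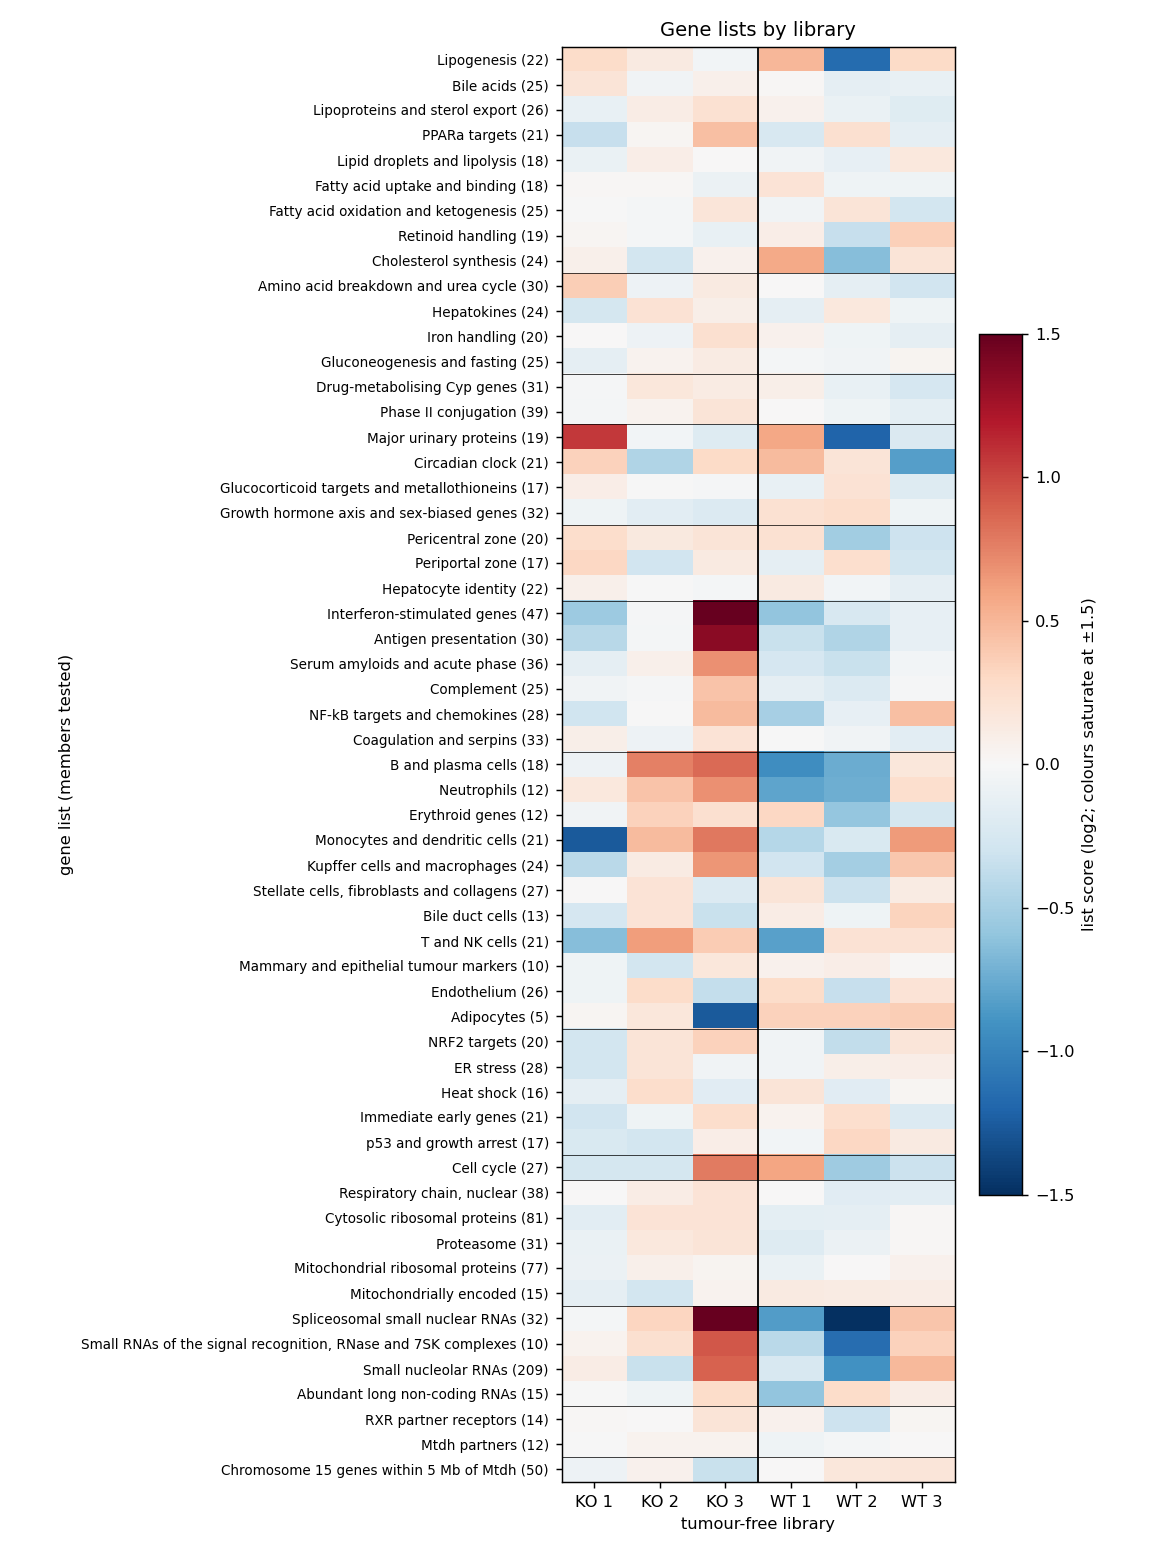
Score of each gene list in each tumour-free library (mean log2 value of its tested members, centred on the 6 libraries), KO columns left of WT. KO 3 carries the high interferon, antigen presentation and small nuclear RNA scores, and WT 2 the low lipogenesis score.

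Cell type markers were read beside these lists. In bulk tissue fewer cells of a type and less RNA per cell cannot be told apart. B and plasma cell genes had 16 of 18 tested members positive and 4 apart, all higher, with a median of 1.01, or 0.50 without WT_no_tumor replicate 1 and 1.6 without WT_no_tumor replicate 3. Another 7 of the genes found did not pass the filter, Cd79a and Cd79b among them. Summed over the 25 genes found, their signal was 16600 to 18000 in KO_no_tumor and 15700 to 18000 in WT_no_tumor, most of it from Xbp1 and Sdc1, which hepatocytes also express. Without those genes the sum was 1330, 2620 and 2500 in KO_no_tumor, against 778, 1220 and 1530 in WT_no_tumor, so KO_no_tumor replicate 1 lay within the WT range. Ighm, the immunoglobulin mu chain, had 167, 669 and 326 in KO_no_tumor livers, against 132, 68.3 and 122 in WT_no_tumor livers (1.67 ± 0.85). The defining marker Cd79a was at 0 in KO_no_tumor replicate 3 and in WT_no_tumor replicate 2. T and NK cell genes had 10 of 21 positive with a median of −0.11, or −0.46 without KO_no_tumor replicate 2 and 0.74 without KO_no_tumor replicate 1. Kupffer cell genes had 19 of 24 positive with a median of 0.24, or −0.05 without KO_no_tumor replicate 3 and 0.55 without WT_no_tumor replicate 3. The neutrophil marker Retnlg was at 0 in all 6 libraries. Of 25 neutrophil genes found, 12 passed the filter, and S100a8, S100a9, Ly6g, Ngp, Camp, Ltf and Mpo did not. The median of the 12 was 0.51, or 0.30 without WT_no_tumor replicate 2 and 0.94 without WT_no_tumor replicate 3. Wfdc21 lay apart on the higher side (0.81 ± 0.30). Clec4e had 28.4, 13.5 and 51.3 in KO_no_tumor livers and was listed at 0 in every WT_no_tumor library. It passed the filter through the KO_no_tumor libraries alone, so its being apart follows from the filter, and its difference in tumour-bearing livers was −3.14. The part of these cells in the results was not tested.

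Spliceosomal small nuclear RNAs were 66 in the table, of which 32 passed the filter. Summed over the 66, their signal was 364000, 258000 and 1800000 in KO_no_tumor, against 176000, 462000 and 471000 in WT_no_tumor. KO_no_tumor replicates 1 and 2 thus lay within the WT range of that sum. Each of the 32 was positive, with a median of 1.63, and 4 were apart. The median was 1.16, 0.88 and 2.39 without KO_no_tumor replicate 3, WT_no_tumor replicate 2 and WT_no_tumor replicate 3. In tumour-bearing livers the median of the 32 was −0.9, with 11 positive. Copies of these genes are nearly identical, so the reads of single copies are uncertain. Of 209 small nucleolar RNAs 160 were positive with a median of 0.39, or 0.04, 0.02 and 0.73 without the same libraries. Of 1134 long non-coding RNAs 2.38% were apart higher and 5.82% lower. Their median was −0.13, or −0.01 without KO_no_tumor replicate 3.

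Transcript length and base composition were read for the genes on each side. Protein-coding genes apart on the higher side had a median transcript of 2820 bases and 52.0% GC, those on the lower side 4130 bases and 45.7%, against 3490 bases and 49.1% over all tested. In the shortest quintile of transcripts 5.87% were apart higher and 2.74% lower, and in the longest quintile 1.87% and 5.53%. In the lowest GC quintile 1.76% were higher and 6.71% lower, and in the highest quintile 5.15% and 2.29%. The median log2 fold changes of the GC quintiles ran from −0.11 to 0.13, and from −0.04 to 0.02 without WT_no_tumor replicate 2. Those of the length quintiles ran from 0.12 in the shortest to −0.07 in the longest, and from 0.10 to −0.07 without that library. Without KO_no_tumor replicate 3 the medians ran from 0.08 to −0.04 with length and from −0.08 to 0.10 with GC. The part of length and GC in the results was not tested.

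**Figure D4:**
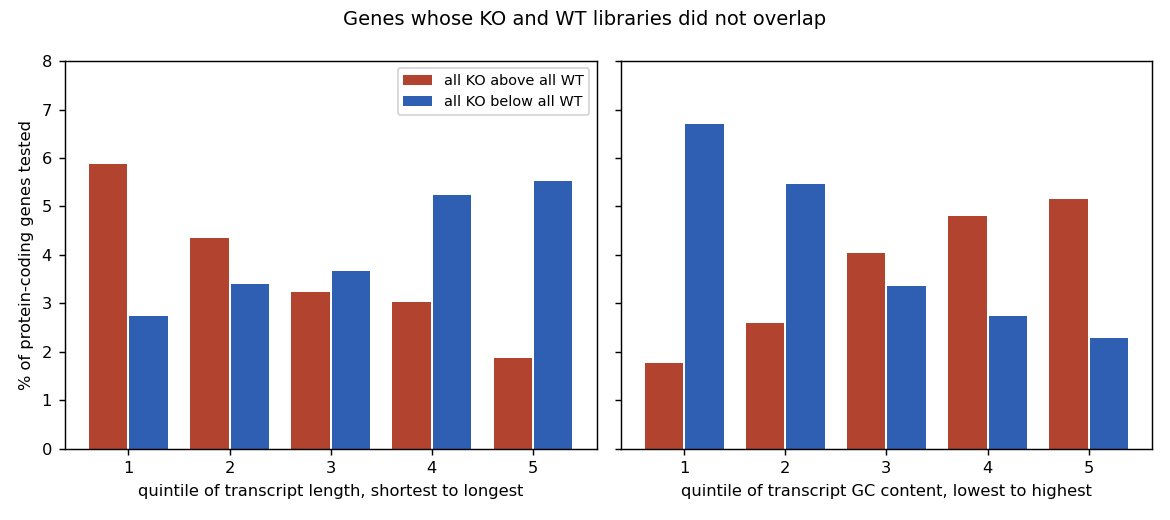
Percent of tested protein-coding genes whose KO libraries all lay above (red) or all below (blue) the WT libraries, by quintile of transcript length (left) and GC content (right). Red falls from 5.87% to 1.87% with length and climbs from 1.76% to 5.15% with GC.

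Genes around Mtdh on chromosome 15 were examined by position. Within 5 Mb, 50 of 78 genes were tested, 5 were apart higher and 4 lower, and the median was −0.13. Of these, Gm49282 on the higher side passed the filter through the KO_no_tumor libraries alone and 9930017N22Rik on the lower side through the WT_no_tumor libraries alone, so their being apart follows from the filter. The unnamed transcript 9930017N22Rik starts at 34127090 inside the Mtdh span. It had 0, 9.78 and 0 in KO_no_tumor livers, against 29.4, 86.2 and 69.1 in WT_no_tumor livers, and 2.47, 0.65 and 2.41 in KO_tumor livers, against 133, 36 and 58.7 in WT_tumor livers. Its reads and those of Mtdh cannot be told apart where they overlap. Tspyl5 differed by 0.66 ± 0.34 and Laptm4b by 0.39 ± 0.30, each apart on the higher side. These genes were chosen after their values were seen.

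The same contrast in tumour-bearing livers uses none of the tumour-free libraries. In it KO_tumor replicate 1 was shallow, at an estimated 12700000 reads and 14899 genes above 0. The other tumour-bearing libraries had 27800000 to 43000000 reads and 19336 to 20304 genes above 0. Of the 564 genes higher in tumour-free KO 57.8% were positive in the tumour-bearing contrast, against 43.7% of all genes tested. Of the 682 lower ones 31.1% were positive in it. Among the 564, 79 were apart higher and 32 lower in tumour-bearing livers, where 8.63% and 9.79% of all genes were. Of the 682, 3.08% were apart higher and 16.3% lower. In both states 79 genes lay apart on the higher side and 111 on the lower side, and 53 lay apart in opposite directions. The correlation of the fold changes of the 2 states across all genes, which are not independent replicates, was 0.109. Of the 14 named higher genes 10 were positive with a tumour, and of the 14 lower ones 8 were negative. Car13 differed by −2.20 ± 0.89 without a tumour and −3.20 with one, and Rpl17 by 1.18 and 1.37. Socs3 was at 1.23 without a tumour and −0.52 with one, Onecut1 at −1.62 and 0.44, and Saa1 at 2.64 and −3.90. Serpinb9 was at 0.71 and −0.44, and with a tumour its KO values all lay below its WT values. The genotype by tumour interaction called 0 genes (0.0%) by limma, with 754 at an unadjusted p below 0.05, and its smallest limma adjusted p among the 28 named genes was 0.849.

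**Figure D5:**
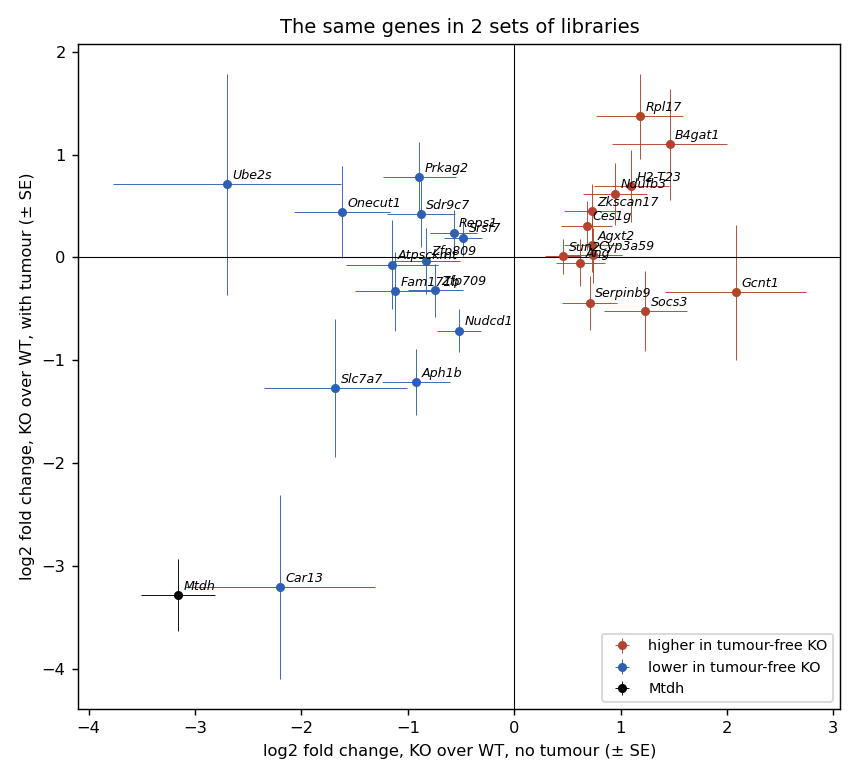
Log2 fold change (KO over WT, ± SE) in tumour-free livers against that in tumour-bearing livers, for Mtdh and the genes labelled in it. Mtdh and Car13 lie low in both, Rpl17 and B4gat1 high in both, and Onecut1 and Socs3 on opposite sides of 0 in the 2 states.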

How the data were processed

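RNA from powdered, snap-frozen liver was depleted of ribosomal RNA and sequenced, per the labels' protocols. Values in the deposited table are a normalized signal that the authors made by scaling each gene's reads with a factor per library, as its name states, without a log. STAR 2.7.8a, Partek, DESeq2 and mm39 are named in the submitters' processing notes. Not given in the sources used here: counting program, annotation, strand use and filters. All 12 columns matched a sample by its description. Low values were whole multiples of 1 read, within 0.01 reads, for 78.0% to 84.9% of values up to 20 reads, so whole reads were not recovered and no count model was used. Depth is the total signal over the value of 1 read. Replicates were different mice.

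The limma package 3.58.1 (R 4.3.3) was fitted to log2(value + 1) of genes that reached 10 in 3 or more of the 6 tumour-free libraries (1 mean per group, all 12 libraries, eBayes with a mean-variance trend), two-sided, Benjamini-Hochberg adjusted over 15934 genes, threshold 0.05. Named genes were Mtdh, the 14 higher and 14 lower genes ranked by p among those averaging 50 or more whose groups did not overlap (without unnamed gene models and pseudogenes), and 2 members per list by smallest p; other genes named were chosen after their values were seen. Some genes picked by this rule are counted but not reported here by name. The genes, 58 lists (53 by hand, with 1057 of 1191 symbols tested, and 5 by rule) and tests were chosen with earlier results of these data known. Transcript length and GC came from the longest GENCODE M21 transcript. Tables used Python 3.11.15, pandas 2.3.3 and numpy 2.4.6, and figures matplotlib 3.10.9. The fit was tested on simulated data before use. Of 50 genes changed at each size, it recovered 4, 19, 34 and 39 at true log2 changes of 1, 2, 3 and 4. Of 15734 unchanged genes it called 4. Alternatives were another pseudocount, filter, scaling, weighting or set of libraries, and the replicate number as a block.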

Additional observations from a re-analysis of the deposited data

How the results depend on the processing

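Mtdh was lower in KO in every setting run, with log2 fold changes of −3.27 to −3.01 when each library was left out in turn. The count of genes called higher was 0 in all settings but library weights, where it was 1 (Rpl31-ps8, a pseudogene whose reads are uncertain, limma adjusted p = 0.048). The count called lower was 0 to 1 across left-out libraries. Unadjusted p below 0.05 held for 144 to 564 genes when a library was left out. Counts of non-overlapping genes rise by construction with fewer libraries: leaving out 1 tumour-free library gave 1175 to 1495 higher and 1186 to 1713 lower, and leaving out KO_no_tumor replicate 3 together with KO_tumor replicate 1, the shallowest library of the series, gave 1175 and 1186. With the replicate block 0 genes were higher and 1 was lower, Mtdh at −3.16, and the block changed no other call. The replicate numbers are those of the sample titles, and same-numbered KO and WT libraries had correlations of deviations of 0.0211, −0.0666 and −0.0292. In the submitters' column names KO_no_tumor replicate 2 shares its number with WT_no_tumor replicate 3, and their correlation was 0.156. The block used the title numbers, and pairing by the column names was not tested. Rescaling to the same total moved the median of all genes to −0.054. Log2 fold changes of 7 named genes crossed 0 when a library was left out. Their ranges were −0.23 to 1.51 for Pgd, −0.71 to 0.04 for Clock, −1.04 to 0.74 for Klrk1 and −0.11 to 1.16 for Irf8. Those of Pck1, Epcam and Rny3 were −0.30 to 1.20, −0.67 to 0.10 and −0.04 to 1.67. With KO_no_tumor replicate 3 and KO_tumor replicate 1 left out together, Clock was at 0.04, Irf8 at −0.11, Pck1 at −0.27 and Rny3 at −0.04. The cause was not tested. With a median SE of 0.442, a log2 difference of that size was within the error of a typical gene.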
